A study of Mus musculus with 6 samples.

Results

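The genes described here are 8 genes of acetylcholine signaling in the mouse striatum: Chat, Slc18a3, Slc5a7, Lhx8, Ache, Chrm1, Chrm2 and Chrm3. They were chosen by name, from the synthesis, transport, breakdown and reception of acetylcholine, with Lhx8 as a transcription factor of the cholinergic fate. Each matched 1 Ensembl identifier among the 46078 genes of the deposited table. RNA was sequenced from the striatum of 3 WT mice and 3 Shank3 transgenic (TG) mice, all males aged 12 weeks on the C57BL/6J background, with 1 library per mouse. The TG mice carry an EGFP-Shank3 transgene beside their endogenous Shank3, a scaffold protein of the excitatory postsynapse, and the promoter of the transgene is not given in the sources used here. The comparison asks whether the RNA of this signaling system differed between the genotypes.

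Acetylcholine in the striatum comes mainly from large, sparse and tonically active interneurons. These cells make the transmitter from choline and acetyl-CoA, load it into vesicles and take choline back up after acetylcholinesterase has split the transmitter in the synaptic cleft. Muscarinic receptors then read the signal. M1 and M3 couple to Gq and raise excitability, M2 and M4 couple to Gi/o, and M1 and M4 are abundant in the spiny projection neurons.

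Chat and Slc18a3 form a nested pair, the cholinergic gene locus. In GENCODE M21 (GRCm38), Chat (ENSMUSG00000021919), which encodes the synthesizing enzyme choline acetyltransferase, lies on chromosome 14 from 32408203 to 32465989 on the minus strand. Slc18a3 (ENSMUSG00000100241), the vesicular acetylcholine transporter, lies inside it from 32462438 to 32464850 on the same strand and shares 0 exon bases with it. The other genes of the interneurons were Slc5a7 (ENSMUSG00000023945; chromosome 17, 54273590 to 54299034), the high-affinity choline transporter, and Lhx8 (ENSMUSG00000096225; chromosome 3, 154306294 to 154330659), a LIM homeodomain transcription factor needed for the cholinergic fate. The stretches before the RefSeq start sites of these 4 genes (GRCm38.p6, 5′ to 3′ on the minus strand) are shown, without bases that GENCODE M21 places in an exon. Capitals mark matches on either strand to CACGTG (an E-box), TGACG (a site bound by CREB-type factors, in its short form), GGGCGG (a GC box) or TAATTA (a core bound by LIM homeodomain factors).
Chat: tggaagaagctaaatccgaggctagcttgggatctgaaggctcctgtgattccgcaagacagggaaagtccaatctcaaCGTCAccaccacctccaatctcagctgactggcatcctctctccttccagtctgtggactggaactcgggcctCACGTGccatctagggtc
Slc18a3: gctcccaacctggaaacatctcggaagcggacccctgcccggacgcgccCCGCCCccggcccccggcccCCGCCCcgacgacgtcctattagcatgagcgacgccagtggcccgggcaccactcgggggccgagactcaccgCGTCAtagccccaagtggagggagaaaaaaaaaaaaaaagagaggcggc
Slc5a7: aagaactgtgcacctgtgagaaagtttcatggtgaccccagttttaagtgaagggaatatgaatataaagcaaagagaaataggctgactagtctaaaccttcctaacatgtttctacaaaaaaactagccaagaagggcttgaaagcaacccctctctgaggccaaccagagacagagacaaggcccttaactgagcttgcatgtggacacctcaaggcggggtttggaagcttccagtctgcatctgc
Lhx8: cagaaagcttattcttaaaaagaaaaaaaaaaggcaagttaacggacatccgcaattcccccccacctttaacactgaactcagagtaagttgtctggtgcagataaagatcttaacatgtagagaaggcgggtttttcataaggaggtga
The stretches are chr14:32465990-32466159 for Chat, chr14:32464851-32465041 for Slc18a3, chr17:54299035-54299284 for Slc5a7 and chr3:154330660-154330810 for Lhx8.

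In these stretches Chat had 1 E-box, 98 bases before the start, and 1 TGACG match. Slc18a3 had 1 TGACG match and 2 GC boxes, and neither Slc5a7 nor Lhx8 had a match to any of the 4 motifs. Over the 250 bases before the start, GC made up 54.8% in Chat, 66.0% in Slc18a3, 45.6% in Slc5a7 and 46.0% in Lhx8, against a median of 52.4% over 32851 promoters. In the full 250 bases, 6.02% of all these promoters held CACGTG, 17.8% TGACG, 32.7% GGGCGG and 4.84% TAATTA. Over that length Chat, Slc18a3, Slc5a7 and Lhx8 had the same matches as in the stretches shown. A match describes the letters only. Of the 8 genes 7 had an entry in the promoter table, and Chrm1 did not.

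The remaining 4 genes act outside the synthesis of the transmitter. Ache (ENSMUSG00000023328; chromosome 5, 137287519 to 137294466) encodes acetylcholinesterase. Chrm1 (ENSMUSG00000032773; chromosome 19, 8663789 to 8683587), Chrm2 (ENSMUSG00000045613; chromosome 6, 36388084 to 36528414) and Chrm3 (ENSMUSG00000046159; chromosome 13, 9875486 to 10360847) encode the receptors M1, M2 and M3. Of their exon bases, 98 in Ache, 329 in Chrm1 and 142 in Chrm2 are shared with a noncoding gene on the opposite strand. The TruSeq v2 kit does not mark the strand, so reads from those bases cannot be assigned to either partner.

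The recovered reads on genes ranged from 27689589 to 36647626 per library. Shank3, the gene carried by the transgene, had normalized read counts (reads divided by the size factor of the library) of 26043.6 to 29891 in TG mice and 12918 to 13865 in WT mice (log2 fold change 1.05, adjusted P = 7.04e-05 by limma). The spiny neuron markers Penk, Ppp1r1b and Pde10a, from a list of 10, had 19741 normalized read counts or more in each library. TG replicate 1 stood apart. The summed normalized read count of 10 choroid plexus genes was 28305 there, against 7769 to 8982 in the other libraries, and Zic1, a gene of the septum, had 1041 against 365 to 470.4. The sum over the spiny neuron markers was lowest there, at 127810.0, against 150134 to 178342. Outside TG replicate 1 the choroid plexus sum was mostly Enpp2 (7487 to 8272), which hides a smaller rise in TG replicate 2. The median log2 deviation of the 9 tested choroid plexus genes from their means was 2.41 in TG replicate 1 and 0.52 in TG replicate 2. It was -1.35 to -0.34 in the other libraries. Ttr had 1122 in TG replicate 2, against 120 to 432 in those libraries, whereas Aqp1 and Enpp2 were lowest in TG replicate 2.

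All 8 genes were measured above the filter, a normalized read count averaging 10 or more, and 0 of them differed between TG and WT mice by limma at a Benjamini-Hochberg adjusted P value under 0.05. Over the 17605 genes tested the same rule called 0.00568% (1 gene, Shank3), so few calls were to be had by it anywhere. The paper called more genes in these libraries, by DESeq2 with P values first corrected by an empirically estimated null distribution. At an unadjusted P value under 0.05 limma also called 0 of the 8, where 4.31% of all genes passed (1.98% higher and 2.33% lower in TG mice). At an adjusted P value under 0.05, edgeR and limma-voom called 0 of the 8, where they called 0.00568% of all genes, and DESeq2 called 0, where it called 0.0398%. Without TG replicate 1 limma again called 0 of the 8. The log2 fold changes (TG minus WT, on log2(normalized read count + 1)) ran from -0.06 for Lhx8 to 0.22 for Chrm2, with a median of 0.02, against -0.00177 over all genes tested. In each of the 8 genes the TG and WT values overlapped, where 10.1% of all genes did not overlap. The number of cholinergic cells and the RNA in each of them cannot be told apart in bulk tissue.

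**Figure D1:**
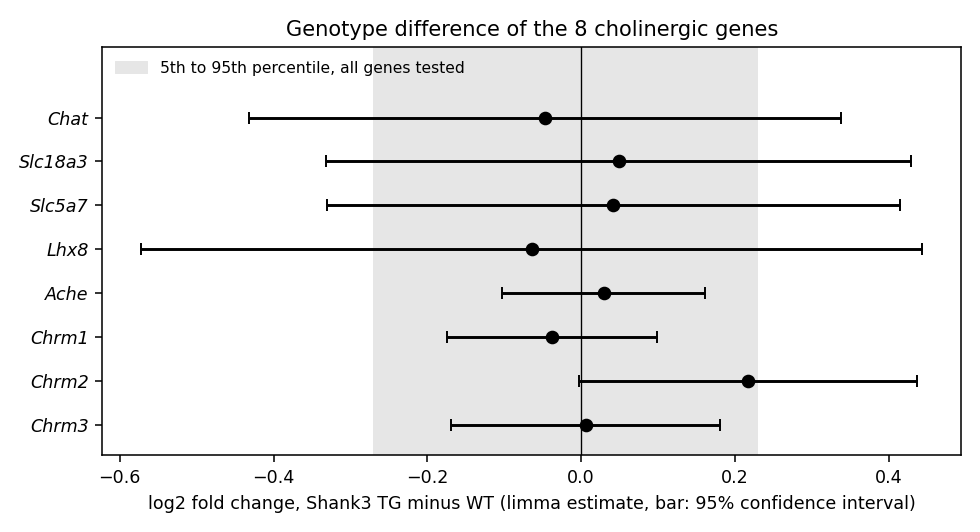
The log2 difference of TG from WT mice (x axis) of each cholinergic gene (y axis), estimated by limma from 3 mice per genotype, with its 95% confidence interval as a bar and the range from the 5th to the 95th percentile of all genes tested, -0.27 to 0.23, in gray. All 8 intervals span 0, those of Chat, Slc18a3, Slc5a7 and Lhx8 are widest, and that of Chrm2 barely reaches 0.

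The genes of the interneurons themselves varied widely between mice of the same genotype. Chat had 309, 513 and 339.8 normalized read counts in TG replicates 1, 2 and 3 and 331, 399 and 449.6 in WT replicates 1, 2 and 3. TG replicate 2 was the highest library and TG replicate 1 the lowest, so both extremes lay in the TG group. The means were 387 ± 109.7 (SD, n = 3) for TG and 393 ± 59.7 (SD, n = 3) for WT. By limma the log2 fold change with its standard error was -0.05 ± 0.17 (adjusted P = 0.989), with a 95% confidence interval from 0.741-fold to 1.26-fold. The ± sign behind any log2 difference gives its standard error.

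Slc18a3 followed Chat. It had 144, 227 and 152 normalized read counts in TG and 145, 166 and 187 in WT mice, and the libraries stood in the same order as for Chat. Limma put the TG mice at 0.05 ± 0.17 on the log2 scale (adjusted P = 0.989), with an interval from 0.795-fold to 1.35-fold.

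Slc5a7, the most abundant of the interneuron genes per exon length, had 537, 939 and 647 normalized read counts in TG and 584, 727 and 705 in WT mice. TG replicate 2 was again highest, and the other TG mice lay at or below the middle of the WT range. The limma estimate was 0.04 ± 0.17 on the log2 scale (adjusted P = 0.990), with an interval from 0.795-fold to 1.33-fold.

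Lhx8 was the least abundant of the 8 genes. Per mouse it had 109, 169.7 and 80.8 normalized read counts among TG and 105, 135 and 121 among WT mice, so the WT mice lay inside the TG range. On average the TG mice differed by -0.06 ± 0.23 on the log2 scale (adjusted P = 0.989), and its interval, from 0.673-fold to 1.36-fold, was the widest of the 8. It had 83 to 151 reads per library.

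Ache was steadier. Acetylcholinesterase RNA is made by many cells besides the interneurons, and normalized read counts reached 2205, 2414 and 2121 in TG and 2179, 2118 and 2302 in WT mice. The lowest and highest libraries differed by 1.14-fold, against 1.66-fold for Chat. Limma gave a difference of 0.03 ± 0.06 on the log2 scale (adjusted P = 0.983), with an interval from 0.931-fold to 1.12-fold.

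**Figure D2:**
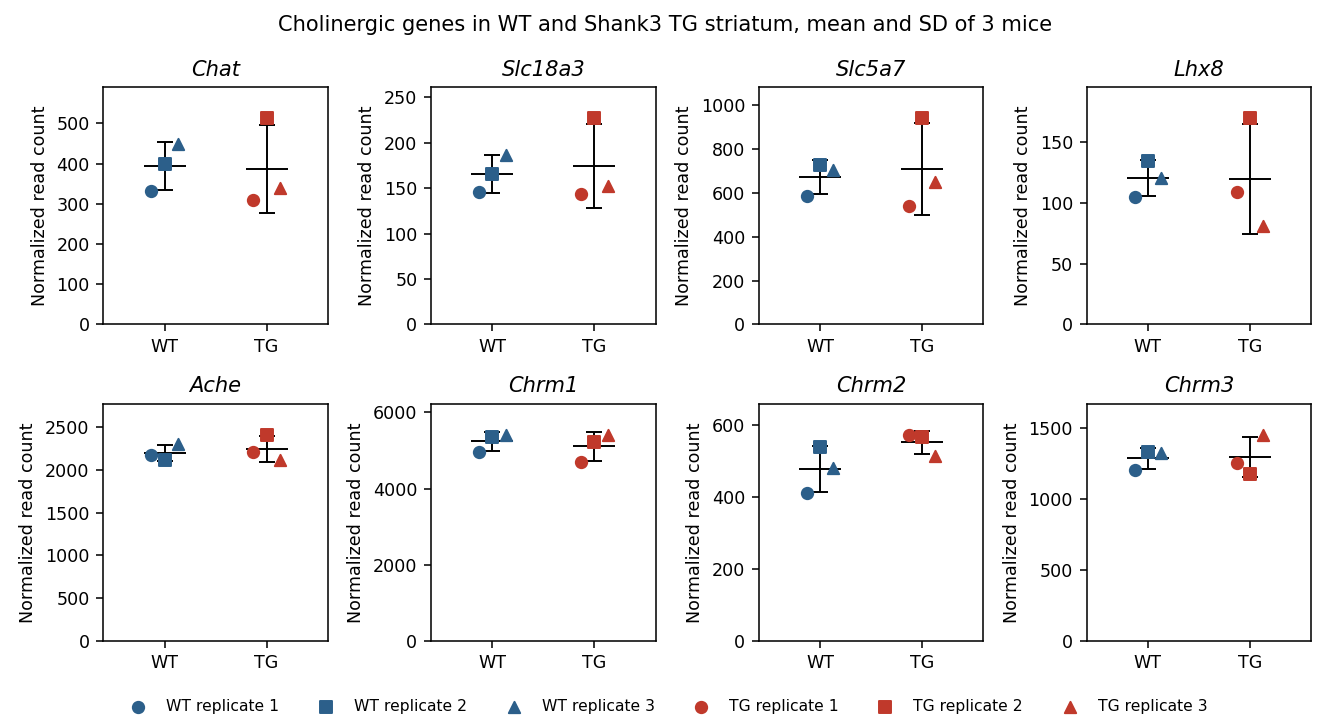
Normalized read counts (y axes, from 0) of the 8 cholinergic genes in each WT (blue) and TG (red) mouse, with circles, squares and triangles for replicates 1, 2 and 3 and the mean with SD of 3 mice in black. The square of TG replicate 2 is the highest point in Chat, Slc18a3, Slc5a7, Lhx8 and Ache, and the groups overlap in all 8 genes.

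Among the receptors, M1 RNA was the most abundant of the 8 genes. Chrm1 had 4686, 5231 and 5418 normalized read counts in TG and 4949.9, 5366 and 5404 in WT mice, with TG replicate 1 lowest, and the highest library was 1.16-fold above it. The estimated difference was -0.04 ± 0.06 on the log2 scale (adjusted P = 0.983), with an interval from 0.886-fold to 1.07-fold.

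Chrm2, the gene of the M2 receptor, had the widest gap between the genotypes. It reached 572, 566 and 513 normalized read counts in TG and 409.7, 538 and 480.1 in WT mice. TG replicates 1 and 2 lay above every WT mouse, and TG replicate 3 lay below WT replicate 2. The means were 551 ± 32.6 (SD, n = 3) and 476 ± 64.1 (SD, n = 3). The log2 fold change of 0.22 (standard error 0.10) exceeded the SD of 0.15 between mice of the same genotype, but did not pass the test (unadjusted P = 0.0519, adjusted P = 0.971 by limma), and its interval ran from 0.998-fold to 1.35-fold. It was the only one of the 8 genes whose difference exceeded that SD, and an exact permutation test (two-sided) returned P = 0.2, where 0.1 is the smallest value that 3 mice against 3 allow. The log2 fold change stayed between 0.11, without WT replicate 1, and 0.31, without WT replicate 2.

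Chrm3 had 1253, 1178 and 1453 normalized read counts in TG and 1202, 1329.9 and 1325 in WT mice, and both extremes again belonged to TG mice. By limma the TG mice differed by 0.01 ± 0.08 on the log2 scale (adjusted P = 0.997), with an interval from 0.889-fold to 1.13-fold.

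Per exon length the genes fell into a clear order at the top and a loose one below. In reads per kb of exon, scaled to the counted reads of the library (RPKM), the mean over the 6 libraries was 25.4 for Chrm1, 15.3 for Ache, 6.56 for Chrm3, 3.88 for Slc5a7, 2.70 for Chrm2, 2.64 for Chat, 2.24 for Slc18a3 and 1.51 for Lhx8. The ranges of neighbours did not overlap down to Slc5a7 and Chrm2, which met at 3.03 and 3.01. Chrm2 and Chat could not be ordered, since Chrm2 was the higher of the pair in 3 of 6 libraries. Chat was above Slc18a3, and Slc18a3 above Lhx8, in 6 of 6 libraries, although the ranges overlapped.

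**Figure D3:**
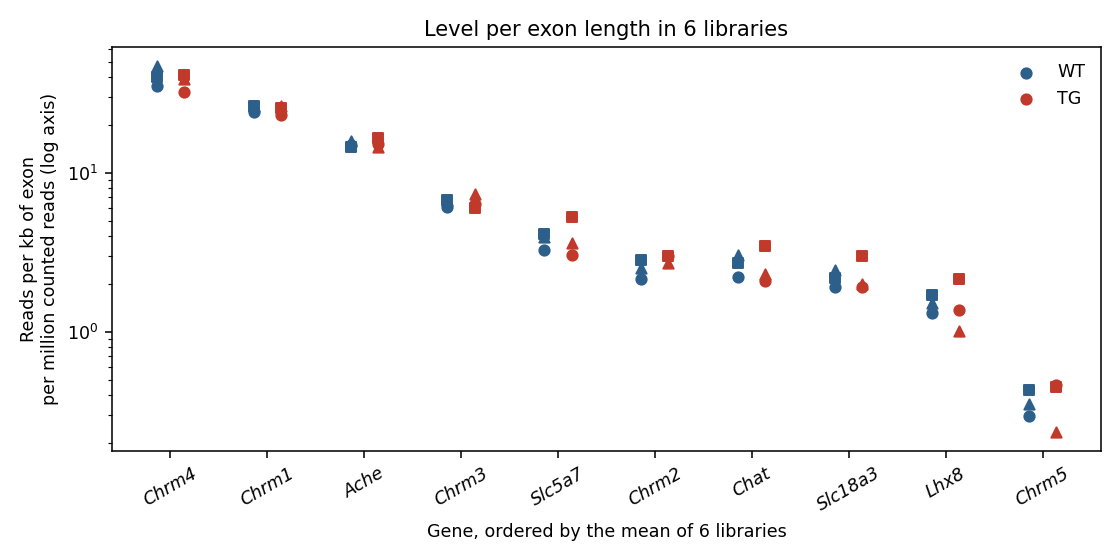
RPKM (y axis, log scale) of the 8 cholinergic genes and of Chrm4 and Chrm5 (x axis, ordered by the mean) in each WT (blue) and TG (red) mouse, with circles, squares and triangles for replicates 1, 2 and 3. Chrm4 and Chrm1 lie highest, with means of 39.2 and 25.4, and Chrm5 lowest, with 0.369.

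Set beside the remaining muscarinic receptors, Chrm4 (M4, abundant in direct pathway spiny neurons) and Chrm5, the receptor RNA was mostly of M4 and M1. Of the summed reads per kb over the 5 receptor genes, Chrm4 made up 49.6% to 56.7% and Chrm1 31.7% to 35.5%. Chrm3 followed with 7.86% to 9.78%, Chrm2 with 3.02% to 4.61% and Chrm5 with 0.306% to 0.707%. The share of Chrm2 was 4.02% ± 0.540 (SD, n = 3) for TG and 3.29% ± 0.362 (SD, n = 3) for WT (two-sided exact permutation test, P = 0.2), and for the other 4 receptors the same test gave P values from 0.4 to 0.7. All 5 shares overlapped between the genotypes.

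**Figure D4:**
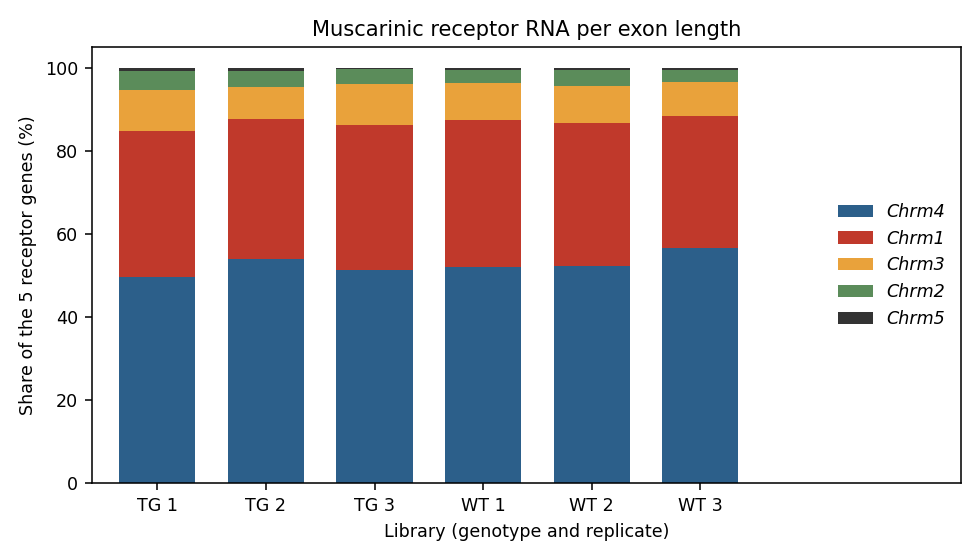
Share of each receptor gene (y axis, %) in the summed reads per kb of exon of the 5 muscarinic receptor genes, in each library (x axis). Chrm4 and Chrm1 fill most of each bar, and the order of the 5 receptors is the same in all 6 libraries.

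The 4 genes of the interneurons varied together from mouse to mouse. Over the 6 libraries the Pearson correlation of their log2 values lay between 0.745 (Slc5a7 with Lhx8) and 0.976 (Chat with Slc18a3) in the 6 pairs, and Spearman's rho between 0.714 and 1.0. With the genotype means taken out r lay between 0.760 and 0.995. Without TG replicate 2 it lay between 0.380 and 0.984, so for the pairs with Lhx8 the relation rests much on that library, whereas Chat and Slc18a3 kept 0.984. These are descriptions over 6 points that share libraries and size factors. Ache had r between 0.641 and 0.844 with the 4 genes, which overlaps their own range, and between -0.0329 and 0.527 without TG replicate 2. Chrm3 had r between -0.653 and -0.193. Without TG replicate 2, however, only Lhx8 stayed negative (-0.430), and r was 0.281 with Chat, 0.319 with Slc18a3 and 0.546 with Slc5a7. Chrm1 had r between 0.0722 (Lhx8) and 0.615 (Slc5a7). Without TG replicate 2 its r was 0.745 with Chat, 0.705 with Slc18a3, 0.923 with Slc5a7 and -0.00145 with Lhx8. All but the last exceed the pairs of Lhx8 with the interneuron genes (0.380 to 0.556), so the covariation was not particular to the 4 genes. Chrm2 had r between 0.240 and 0.365, and between -0.0863 and 0.106 without TG replicate 2.

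The spread between mice was larger than for most genes. The coefficient of variation over the 6 libraries was 20.3% for Chat, 18.9% for Slc18a3, 20.5% for Slc5a7 and 25.2% for Lhx8, where the counting of reads alone gives 5.14%, 7.76%, 3.86% and 9.35%. Over the 6594 genes that averaged normalized read counts between 100 and 1000 the median was 7.42% and the 95th percentile 17.8%. For Chrm2, in the same range of abundance, it was 11.9%. The more abundant Ache, Chrm1 and Chrm3 had 5.19%, 5.74% and 7.84%, where the median over all genes tested was 7.57%. That median includes genes with few reads, and none was computed for genes as abundant as Ache, Chrm1 and Chrm3. Relative to their own mean over the 6 libraries, the 4 interneuron genes averaged 1.38-fold in TG replicate 2, 1.06-fold and 1.09-fold in WT replicates 2 and 3, and 0.846-fold to 0.873-fold in the others.

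**Figure D5:**
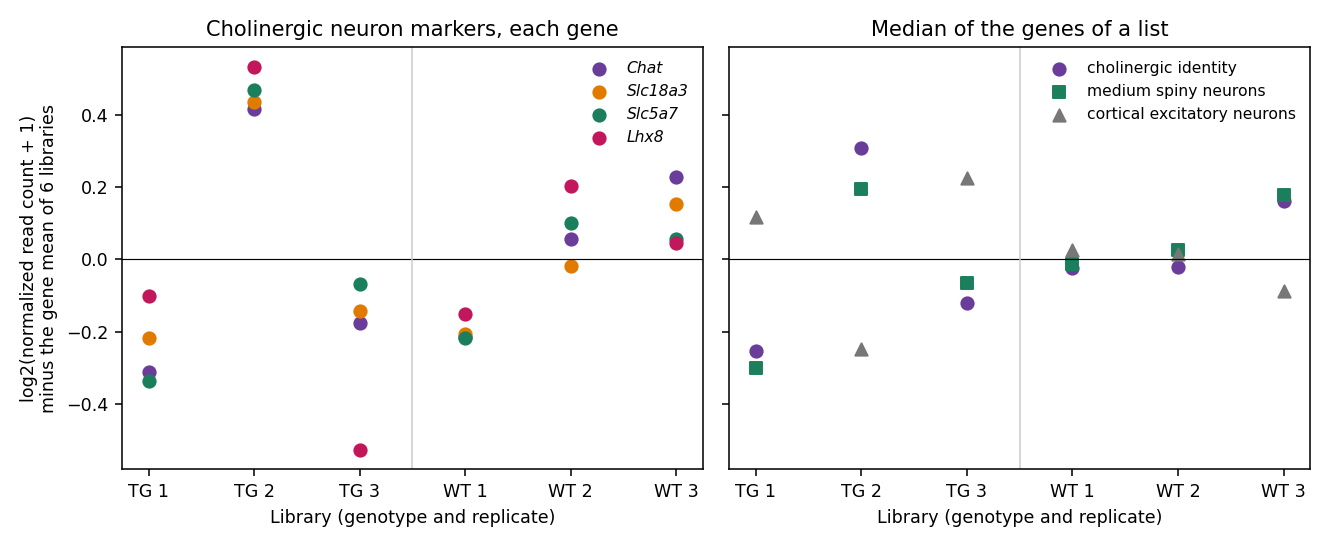
Deviation of log2(normalized read count + 1) from the mean of the 6 libraries (y axis) in each library (x axis), for Chat, Slc18a3, Slc5a7 and Lhx8 as single genes (left) and as the median of 3 lists of marker genes (right). TG replicate 2 is highest in the 4 interneuron genes and lowest in the cortical list, and the spiny neuron list is lowest in TG replicate 1.

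Other markers of tissue makeup moved with this pattern. The 10 spiny neuron markers had correlations with the mean profile of the 4 interneuron genes between 0.717 and 0.865, and the 8 cortical excitatory markers between -0.970 and -0.506. The summed normalized read count of the cortical markers was 28224 in TG replicate 2, where the interneuron genes were highest, 32797 in WT replicate 3 and 36017 to 40023 in the other libraries, and 0 of the 8 cortical markers were at 0. Slc17a7, the vesicular glutamate transporter of cortical neurons, had 20237 in TG replicate 2 and 23867 to 29848 elsewhere. Their part in the variation of the cholinergic genes was not tested. The 9 choroid plexus genes tested, highest in TG replicate 1, had correlations between -0.457 and 0.214 with the profile. The list of the septum, pallidum and basal forebrain, regions with cholinergic neurons of their own, held 4 genes. Of these only Nkx2-1 had a high correlation with the profile, 0.912, and Zic1, Zic4 and Ngfr had -0.293, -0.189 and -0.0229. Whether the Nkx2-1 RNA came from those regions or from cells of the striatum was not tested. Among 12828 genes averaging 100 or more normalized read counts, those most like the profile were Ryr3 (r = 0.983), Pcdhb9 (0.979), Six3os1 (0.975), Galnt11 (0.974), Dstyk (0.971) and Paics (0.970), and 23 genes exceeded 0.95. Chat, Slc18a3, Slc5a7 and Lhx8 themselves were left out of this ranking, which describes the highest of many values over 6 libraries and shows no link to these genes.

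Ratios between genes of the same library do not depend on its size factor. Per exon length, Slc18a3 stood at 0.910, 0.863 and 0.871 of Chat in TG replicates 1, 2 and 3 and at 0.856, 0.808 and 0.809 in WT replicates 1, 2 and 3. The TG mice lay above the WT mice without overlap, by 6.92% of the WT mean (exact permutation, two-sided, P = 0.1, which is the lowest that 3 against 3 allow, and 0.5 when adjusted over the 5 ratios computed). The means were 0.881 ± 0.0247 (SD, n = 3) for TG and 0.824 ± 0.0279 (SD, n = 3) for WT. The gap exceeded the SD between mice but did not pass the test. Counting of reads alone gives a coefficient of variation per library of 7.76% for Slc18a3 and 5.14% for Chat. These values are for single genes in single libraries, not for a ratio averaged over 3 mice. The part of counting error in the gap of 6.92% was not tested. How many ratios of other gene pairs do not overlap was not computed. The ratio of Slc5a7 to Chat lay between 1.31 and 1.59 over all libraries and that of Lhx8 to Chat between 0.442 and 0.655, with overlap between the genotypes. For Chrm2 to Chat it was 1.16 ± 0.291 (SD, n = 3) in TG and 0.946 ± 0.109 (SD, n = 3) in WT mice (exact permutation P = 0.3). The ratio of Ache to Chat lay between 4.79 in TG replicate 2 and 7.26 in TG replicate 1.

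Further genes of cholinergic identity showed no called difference either. Of 6 such genes, 2 were higher and 4 lower in TG mice, 0 passed the adjusted test in either direction, and the median log2 fold change was -0.05. Slc10a4, a vesicle protein of cholinergic neurons, had 263, 371 and 239.5 normalized read counts in TG and 288, 304 and 347 in WT mice. Tacr1, the substance P receptor, had 545, 843 and 667 in TG and 655, 691 and 736 in WT mice. Isl1, a LIM homeodomain factor that works with Lhx8, differed by 0.11 ± 0.11, and Slc17a8, the vesicular glutamate transporter these interneurons also carry, by -0.05 ± 0.14. In 5 of the 6 genes TG replicate 2 was again the highest library, as it was in 17.5% of all genes tested.

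For the supply and breakdown of acetylcholine, 0 of 8 further genes were called, 3 higher and 5 lower in TG mice, with a median log2 fold change of -0.03. Prima1, which anchors acetylcholinesterase in the membrane, had 277, 388 and 362 normalized read counts in TG and 397, 406 and 465 in WT mice. The groups did not overlap, as in 5.05% of all genes in this direction. In log2 terms the difference was -0.31 ± 0.12, with an unadjusted P value of 0.0276 and an adjusted one of 0.971 by limma. Acly, which makes the acetyl-CoA, Slc44a1, a choline transporter, and Chka, choline kinase, had log2 fold changes of 0.00, -0.03 and 0.06.

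Of 16 nicotinic receptor subunits 10 passed the filter, 7 higher and 3 lower, with 0 called and a median log2 fold change of 0.14. Chrna4 and Chrnb2, which together form the main brain receptor of high affinity, led per exon length with 8.19 and 6.91 RPKM. Chrna4 had 1481, 1132 and 1512 normalized read counts in TG and 1206, 1179 and 1253 in WT mice, a difference of 0.17 ± 0.10 on the log2 scale, and Chrnb2 had 0.06 ± 0.05. Chrna7 had -0.13 and Chrnb1 -0.06. Chrna2 had the smallest P value (unadjusted P = 0.0696 by limma), with 20.6, 27.0 and 25.3 in TG and 19.5, 17.8 and 13.7 in WT mice, which did not overlap, as in 5.06% of all genes in this direction. Chrna6, Chrna9, Chrna10, Chrnd, Chrne and Chrng lay below the filter, and Chrnd was listed at 0 in all libraries.

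Of 6 chaperones and modulators of nicotinic receptors, 5 were higher and 1 lower, with 0 called and a median log2 fold change of 0.05. Ric3, a chaperone, had 2536, 2517 and 2521 normalized read counts in TG and 2416, 2381 and 2404 in WT mice, without overlap, where 5.06% of all genes were higher without overlap, and differed by 0.07 ± 0.04 on the log2 scale (unadjusted P = 0.121, adjusted P = 0.971 by limma). Lynx1, Ly6h and Tmem35a, the most abundant of the list per exon length, had -0.01, 0.05 and 0.05.

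Downstream of the muscarinic receptors, 12 of 19 genes were higher and 7 lower, with 0 called and a median log2 fold change of 0.02. Plcb4, a phospholipase C activated by Gq, had the smallest P value (unadjusted P = 0.0431, adjusted P = 0.971 by limma), with 2010.4, 1747 and 2169 normalized read counts in TG and 1626, 1902 and 1637 in WT mice. Its values overlapped between the groups. Rgs4, which shortens the signaling of Gi/o and Gq, Gnao1, the alpha subunit of Go, Itpr1, the receptor of inositol trisphosphate, and Gnai1, an alpha subunit of Gi, had log2 fold changes of 0.03, -0.06, -0.02 and 0.12.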

How the data were processed

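Per the labels and the paper's methods, the authors trimmed paired-end reads with Trimmomatic 0.35, aligned them with TopHat2 2.1.0 to GRCm38, assigned them to genes with HTSeq and scaled the counts by DESeq2 size factors. The deposited signal is this normalized read count; the annotation release and strand setting are not given in the sources used here. Reads were recovered by dividing each library by its smallest value above 0 (100% of values whole within 0.01).

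Identifiers were matched to GENCODE M21 (45143 of 46078). Genes averaging 10 or more (17605) were tested on log2(value + 1) with limma 3.58.1 and its trend option in R 4.3.3, with Benjamini-Hochberg adjustment at 0.05. The test was checked on simulated data. Levels per exon length used recovered reads and the union of GENCODE exons. edgeR 4.0.16, DESeq2 1.42.0 and limma-voom on recovered reads were alternatives.

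The genes, lists and tests were chosen with earlier results of these data known. Named genes are the 8 genes, Shank3, up to 4 genes per list with the highest level per exon length, any gene called, the gene of each list with the smallest P value, and the 6 most like the interneuron profile; 1 gene that this rule names is not reported here. The thalamus list (4 tested, median log2 fold change 0.07) and the medial habenula list (3 tested, 0.25) had 0 genes called, as did the other lists: spiny neurons (10 tested, -0.14), cortical neurons (8, 0.06), septum, pallidum and basal forebrain (4, 0.35) and choroid plexus (9, 1.30).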

Additional observations from a re-analysis of the deposited data

How the results depend on the processing

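The count of 0 called genes among the 8 held under every alternative run: TMM scaling, library totals, pseudocounts of 0.5 or 5, a filter at 50 or none, edgeR, DESeq2, limma-voom, each mouse left out, the replicate block and an adjusted P value under 0.1. Over all genes the count was 1, and it was 5 without a filter, 7 by DESeq2, 4 at an adjusted P value under 0.1 and 1 to 2 when single mice were dropped. Same-numbered mice did not deviate together (correlations of 0.0474, 0.0163 and 0.0928), so the replicate block, which called 0 of the 8 genes and 1 gene in all, pairs mice by number only.

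The direction of the log2 fold change turned in 7 of the 8 genes when a mouse was left out, and in 0 under the other alternatives. The values with each mouse left out ran from -0.27 to 0.10 for Chat, -0.16 to 0.17 for Slc18a3, -0.18 to 0.22 for Slc5a7, -0.35 to 0.18 for Lhx8, -0.0238 to 0.0697 for Ache, -0.0808 to 0.0239 for Chrm1, 0.11 to 0.31 for Chrm2 and -0.0802 to 0.0710 for Chrm3. The ends of the range for Chat, Slc18a3 and Slc5a7 came without TG replicate 2 (lowest) and without TG replicate 1 (highest), and for Lhx8 without TG replicates 2 and 3. No direction is therefore given for these 7 genes. Counting error was largest for Lhx8 (9.35%, with as few as 83 reads in a library), and the spread between mice exceeded it in each of the 8 genes.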
